A study of Mus musculus with 9 samples.

Results

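Activins and follistatins are described here as 7 genes out of 32671 in the deposited gene table: the activin subunit genes Inhba and Inhbb, the receptor genes Acvr1b and Acvr2a, and the follistatin genes Fst, Fstl3 and Fstl1. The genes were chosen by symbol, with earlier results of these same libraries known, so their levels across the groups are a description and their p-values are no independent evidence. All 7 were among the 20794 genes that passed the filter on low counts. The samples are whole lung of wild-type C57BL/6 mice taken at day 21, in 3 groups of 3 libraries each. The group called LNP received bleomycin and also inhaled lipid nanoparticles labelled mCas9/gSting@DOPS, that is, Cas9 nuclease with a guide named for Sting. Lungs of the bleomycin group had the same drug, which breaks DNA and leaves scarred lung in mice, and no particles. The control group received saline. Because bleomycin-injured lung given particles without the guide was not analysed here, an effect of the guide and an effect of the particle cannot be told apart.

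Activins are dimers of beta subunits and belong to the TGF-beta superfamily of secreted signals. An activin binds a type II receptor, which recruits a type I receptor that phosphorylates SMAD proteins, and these enter the nucleus with Smad4 to change transcription. Follistatin wraps around activin and blocks its receptor contacts, and activin signalling is known to drive fibroblast activation and matrix production in injured lung.

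Library totals lay between 56047830 and 69404903 counts. Whether the 3 libraries of each group came from different mice is not stated in the labels, so the p-values describe the spread among these libraries alone. Sting1, for which the guide is named, stood at 51.8, 62.0 and 44.3 CPM in LNP libraries, 53.8, 41.5 and 40.5 CPM in bleomycin libraries and 18.4, 23.9 and 20.9 CPM in control libraries, where CPM scales counts to library size after adjusting for library makeup. LNP and bleomycin libraries overlapped for this gene (log2 fold change 0.22 ± 0.17, edgeR adjusted p = 0.477). Without LNP replicate 3, described next, the value was 0.33 ± 0.17 (edgeR adjusted p = 0.182). Against control, Sting1 was called higher in bleomycin lung (1.10 ± 0.18, edgeR adjusted p = 0.00162). It was also called higher in LNP lung with that library (1.32 ± 0.18, edgeR adjusted p = 0.00293) and without it (1.47 ± 0.17, edgeR adjusted p = 0.000697). LNP replicate 3 stood apart from every other library. A list of 12 skeletal muscle markers summed to 9086 CPM in it, against 36.4 and 40.9 CPM in the other LNP libraries, 15.3 to 27.3 CPM in bleomycin libraries and 84.5 to 126 CPM in control libraries. A list of 12 squamous epithelium markers summed to 2221 CPM in that library, against 9.25 and 27.0 CPM in the other LNP libraries, 8.63 to 8.98 CPM in bleomycin libraries and 4.76 to 7.69 CPM in control libraries. Tests of the LNP group are therefore given with and without this library for Sting1, the members and the other pathway genes. Tests of the marker lists are given with it only. Of 12 lung markers, none was at 0 in any library.

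Promoter windows are shown for the 4 members called in both the bleomycin against control and the LNP against bleomycin comparison. They were chosen by these calls, so no link between sequence and direction is read from them. No window was available for Fst. Each window runs from 250 bases before to 50 bases after the RefSeq start site (GRCm38.p6), read 5′ to 3′ on the gene's strand. Capitals mark matches on either strand to 2 short motifs, TATAAA (the TATA box) and GGGCGG (the GC box that Sp factors bind), and to CAGAC, the core that SMAD proteins bind.
Inhba, chr13:16011601-16011900, plus strand: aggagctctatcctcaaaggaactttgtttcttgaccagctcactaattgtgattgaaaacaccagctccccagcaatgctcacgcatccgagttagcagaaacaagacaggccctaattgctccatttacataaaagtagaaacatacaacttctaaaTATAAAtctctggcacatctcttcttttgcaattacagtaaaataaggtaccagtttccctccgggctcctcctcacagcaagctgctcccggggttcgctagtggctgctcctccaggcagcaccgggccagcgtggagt
Inhbb, chr1:119422199-119422498, minus strand: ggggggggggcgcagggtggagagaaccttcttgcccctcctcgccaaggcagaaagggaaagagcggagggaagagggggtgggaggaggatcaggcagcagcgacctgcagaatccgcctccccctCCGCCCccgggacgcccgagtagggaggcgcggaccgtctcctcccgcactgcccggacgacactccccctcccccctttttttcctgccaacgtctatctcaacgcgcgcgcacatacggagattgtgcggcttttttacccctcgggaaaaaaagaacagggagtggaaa
Fstl3, chr10:79777024-79777323, plus strand: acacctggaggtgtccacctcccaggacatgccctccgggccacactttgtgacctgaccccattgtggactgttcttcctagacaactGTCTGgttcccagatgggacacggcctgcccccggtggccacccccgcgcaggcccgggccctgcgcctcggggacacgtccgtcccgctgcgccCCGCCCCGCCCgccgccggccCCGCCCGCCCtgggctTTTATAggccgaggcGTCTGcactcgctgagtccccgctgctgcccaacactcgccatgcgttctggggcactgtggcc
Fstl1, chr16:37776805-37777104, plus strand: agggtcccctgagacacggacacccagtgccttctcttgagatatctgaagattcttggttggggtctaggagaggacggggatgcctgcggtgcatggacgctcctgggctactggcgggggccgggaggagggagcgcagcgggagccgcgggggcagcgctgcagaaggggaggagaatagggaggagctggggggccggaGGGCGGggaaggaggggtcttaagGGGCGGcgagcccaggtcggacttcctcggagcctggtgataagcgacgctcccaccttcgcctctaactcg
The Inhba window held TATAAA at position -91 from the start site and no GC box. The Fstl3 window held the reverse complement TTTATA at position -29, 4 GC boxes, some of which overlap, and 2 CAGAC matches. Inhbb had 1 GC box and Fstl1 had 2. The receptor windows, which are not shown, held 4 GC boxes for Acvr1b, and 3 GC boxes and 1 CAGAC match for Acvr2a. Among all 32851 windows of this length, 13.6% held TATAAA, 35.7% held GGGCGG and 49.6% held CAGAC. Neither TGANTCA, bound by AP-1, found in 7.81% of windows, nor TGACGTCA, bound by CREB and found in 1.79%, occurred in any of the 6 member windows searched. GC content was 47.7% for Inhba, 64.3% for Inhbb, 70.7% for Fstl3 and 66.7% for Fstl1, where the median window had 52.7%. The receptor genes, which were not called, had 79.7% (Acvr1b) and 80.3% (Acvr2a). A match is only a match of letters, and nothing about binding was measured.

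The activin subunit genes had their highest levels in bleomycin lung. Inhba, which encodes the beta A subunit of activin A, stood at 6.25, 7.79 and 9.34 CPM in LNP libraries, at 68.1, 41.6 and 19.6 CPM in bleomycin libraries and at 1.60, 0.999 and 2.19 CPM in control libraries. No LNP library overlapped a library of either other group, and bleomycin lung was highest. Inhbb, which encodes the beta B subunit of activin B, stood at 35.1, 46.8 and 28.3 CPM in LNP libraries, at 228, 135 and 64.2 CPM in bleomycin libraries and at 26.9, 29.2 and 21.9 CPM in control libraries. For Inhbb the LNP and control libraries overlapped, and all 3 bleomycin libraries lay above both. In the deposited table Inhba (ENSMUSG00000041324) lies on chromosome 13 from 16186436 to 16206206 and Inhbb (ENSMUSG00000037035) on chromosome 1 from 119343195 to 119349978, in coordinates for which no genome build is named in the labels or headers. Opposite-strand gene models overlap Inhba, but Gm48444 had at most 1 count and B230303A05Rik at most 46 in a library, against 66 or more for Inhba.

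The receptor genes varied far less. Acvr1b, the type I receptor that phosphorylates Smad2 and Smad3, stood at 64.9, 66.7 and 66.6 CPM in LNP libraries, at 76.2, 71.9 and 58.6 CPM in bleomycin libraries and at 69.4, 86.8 and 77.3 CPM in control libraries. Bleomycin libraries spanned values both below and above those of LNP lung and overlapped control lung. Acvr2a, a type II receptor that binds activin, stood at 18.3, 18.2 and 22.9 CPM in LNP libraries, at 28.2, 25.4 and 24.7 CPM in bleomycin libraries and at 24.6, 10.04 and 24.3 CPM in control libraries. For Acvr2a every LNP library lay below every bleomycin library, and control replicate 2 was the lowest of the 9, at 663 counts. Acvr2a overlaps the opposite-strand gene Orc4 by 446 bases, and Orc4 also had fewer counts in control replicate 2 (457) than in the other control libraries (1131 and 1220).

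Among the follistatin genes, Fst showed the widest range. Fst, the secreted antagonist that binds activins with high affinity, stood at 13.1, 19.2 and 85.1 CPM in LNP libraries, at 306, 207 and 126 CPM in bleomycin libraries and at 4.67, 5.28 and 4.17 CPM in control libraries. The groups did not overlap, but LNP replicate 3 lay well above the other LNP libraries and nearest to bleomycin lung. Fstl3, a related antagonist that binds activins but lacks the heparin-binding domain of follistatin, stood at 39.2, 49.1 and 82.8 CPM in LNP libraries, at 140, 128 and 127 CPM in bleomycin libraries and at 39.8, 47.4 and 37.2 CPM in control libraries. LNP replicates 1 and 2 lay within or just above the control range, and replicate 3 lay between control and bleomycin lung. Fstl1, a secreted glycoprotein of mesenchymal cells that carries a follistatin domain, stood at 258, 264 and 463 CPM in LNP libraries, at 637, 638 and 622 CPM in bleomycin libraries and at 152, 153 and 162 CPM in control libraries. Its groups did not overlap, and LNP replicate 3 was again the highest of its group. A neighbouring opposite-strand gene, Prss57, overlaps Fstl3 by 1157 bases and had at most 33 counts in a library.

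**Figure D1:**
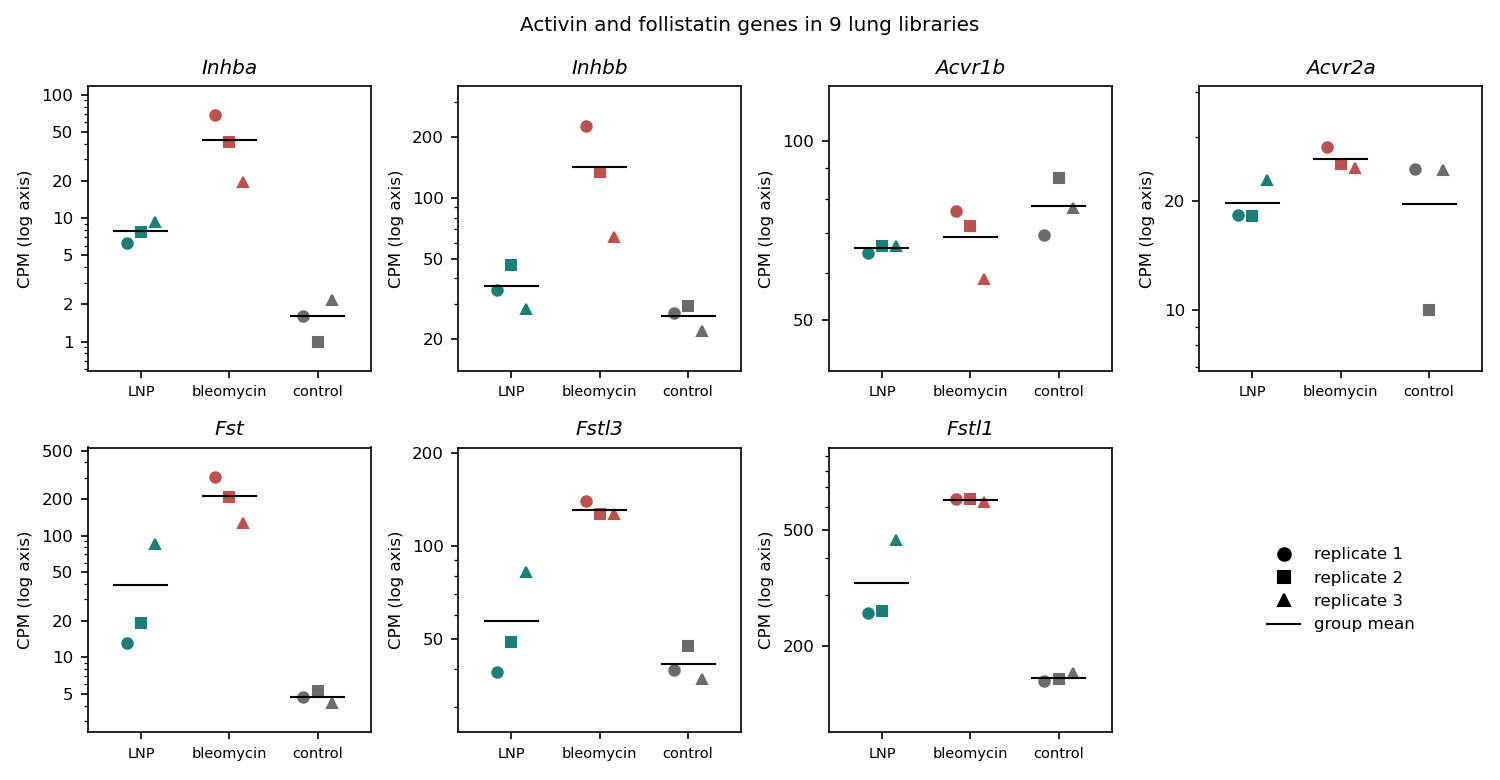
Level of each gene in the 9 libraries as CPM on a log axis, with LNP, bleomycin and control from left to right. Symbols give the replicate and bars the group mean. Inhba, Inhbb, Fst, Fstl3 and Fstl1 are highest in bleomycin lung, and for Fst, Fstl3 and Fstl1 the triangle of LNP replicate 3 lies above the other LNP libraries.

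Bleomycin against control asks what the injury had done to these genes by day 21. Both activin subunit genes and all 3 follistatin genes were higher in bleomycin lung, while neither receptor gene passed the test. In all, 5 of the 7 members were called higher and 0 lower at an adjusted p under 0.05, where 15.2% of all tested genes were called higher and 18.5% lower. The list was drawn up with this contrast known, so nothing is read from that count. Fst averaged 213 ± 89.7 CPM in bleomycin libraries and 4.71 ± 0.555 CPM in control libraries (SD, n = 3 each), which was 45.3-fold higher (log2 fold change 5.50 ± 0.73 SE, edgeR adjusted p = 0.000682). Inhba averaged 43.1 ± 24.3 CPM in bleomycin lung and 1.60 ± 0.594 CPM in control lung and was 27.0-fold higher (4.75 ± 0.48, edgeR adjusted p = 0.000228). Inhbb, at 142 ± 82.1 CPM against 26.0 ± 3.70 CPM in control lung, rose 5.47-fold (2.45 ± 0.40, edgeR adjusted p = 0.00171). Fstl1 rose 4.07-fold (2.02 ± 0.22) and Fstl3 rose 3.17-fold (1.66 ± 0.25), with edgeR adjusted p-values of 0.000281 and 0.00115. Acvr1b had a log2 fold change of -0.18 with a 95% interval from -0.48 to 0.13, and Acvr2a one of 0.41 with an interval from -0.24 to 1.06. The 5 calls held in all 18 alternative analyses, including each fit with 1 library left out.

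LNP against bleomycin asks how the particle treatment altered injured lung. Inhba, Inhbb, Fstl3 and Fstl1 were lower in LNP lung, and the 2 receptor genes did not pass the test. The count of 4 members called lower and 0 higher stands beside 1.87% of all tested genes called lower and 4.28% called higher. With library sizes in place of TMM scaling, the median of all tested genes moved by 0.12 to 0.16 and 83.5% of all calls were higher instead of 69.6%, and the 4 members were still called lower. Both this comparison and the previous one use the bleomycin libraries, so their directions are not independent of each other. Inhba averaged 7.79 ± 1.55 CPM in LNP libraries and 43.1 ± 24.3 CPM in bleomycin libraries and was 5.53-fold lower in LNP lung (log2 fold change -2.47 ± 0.43, edgeR adjusted p = 0.0151). Inhbb averaged 36.7 ± 9.37 CPM in LNP libraries and 142 ± 82.1 CPM in bleomycin libraries, 3.87-fold lower in LNP lung (-1.95 ± 0.39, edgeR adjusted p = 0.0223). Fstl3 was 2.30-fold lower (-1.20 ± 0.24) and Fstl1 was 1.93-fold lower (-0.95 ± 0.21), with edgeR adjusted p-values of 0.0237 and 0.0321. Fst, with 39.1 ± 40.0 CPM in LNP libraries and 213 ± 89.7 CPM in bleomycin libraries, had a log2 fold change of -2.45 ± 0.63 and just missed the threshold (edgeR adjusted p = 0.0504). It passed with DESeq2 (adjusted p = 0.0123) and with limma on filtered FPKM values (adjusted p = 0.025 and 0.0239 at the 2 pseudocounts), and over all 18 alternatives its adjusted p ran from 0.000137 to 0.177. Acvr1b had a log2 fold change of -0.06 with a 95% interval from -0.36 to 0.24, and Acvr2a one of -0.40 with an interval from -1.05 to 0.25.

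Without LNP replicate 3, LNP lung had 5 members called lower against bleomycin lung, beside 10.7% of all tested genes called lower. Fst then averaged 16.1 CPM over LNP replicates 1 and 2 and was 13.2-fold lower than in bleomycin lung (log2 fold change -3.72 ± 0.36, edgeR adjusted p = 0.000137). The log2 fold changes of Inhba, Inhbb, Fstl3 and Fstl1 were -2.61, -1.79, -1.57 and -1.27 in this fit. In replicate 3 itself Fst was 5.27 times the mean of LNP replicates 1 and 2, Fstl3 1.88 times, Fstl1 1.77 times and Inhba 1.33 times, whereas Inhbb was 0.691 times. Skeletal muscle and squamous markers, given above, were also high in this library. Its summed fibroblast markers (7156 CPM) and macrophage markers (4264 CPM) were the highest of the LNP group, and its summed lung markers (14736 CPM) the lowest. The part of any of these in its Fst level was not tested. The calls also depended on other single libraries. With bleomycin replicate 1, bleomycin replicate 2, LNP replicate 1 or LNP replicate 2 left out, 0 members were called by edgeR, although Inhba kept a log2 fold change of -1.97, -2.49, -2.33 and -2.47 at adjusted p-values of 0.0545, 0.0675, 0.0566 and 0.0536. Without bleomycin replicate 3, 2 members were called, Inhba and Inhbb. Leaving out control replicate 1 or control replicate 3 ended the call of Fstl1 (edgeR adjusted p = 0.0606 and 0.0594).

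LNP against control asks how far treated lung still differed from uninjured lung. Fst, Inhba and Fstl1 remained higher in LNP lung, while Inhbb, Fstl3 and the 2 receptor genes did not pass the test. These 3 calls stand beside 4.95% of all tested genes called higher and 3.08% called lower. Fst exceeded control 8.31-fold (log2 fold change 3.05 ± 0.65, edgeR adjusted p = 0.02), with 39.1 ± 40.0 CPM in LNP libraries and 4.71 ± 0.555 CPM in control libraries. Inhba was 4.87-fold higher (2.28 ± 0.44, edgeR adjusted p = 0.0125) and Fstl1 was 2.11-fold higher (1.08 ± 0.21, edgeR adjusted p = 0.0139). Inhbb had a log2 fold change of 0.50 with a 95% interval from -0.35 to 1.34, and Fstl3 one of 0.46 with an interval from -0.08 to 1.00. Acvr1b, at -0.24 with an interval from -0.54 to 0.07, and Acvr2a, at 0.01 with an interval from -0.64 to 0.66, also stayed short of the threshold. Without LNP replicate 3 the same 3 members were called, beside 6.41% of tested genes called higher and 4.51% called lower, and Fst was 3.52-fold higher (1.82 ± 0.31, edgeR adjusted p = 0.0052). Without control replicate 1 the edgeR fit called 0 members (adjusted p = 0.0616 for Inhba, 0.0884 for Fst and 0.0669 for Fstl1). Inhba alone was called without control replicate 3, and Inhba and Fstl1 without control replicate 2.

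**Figure D2:**
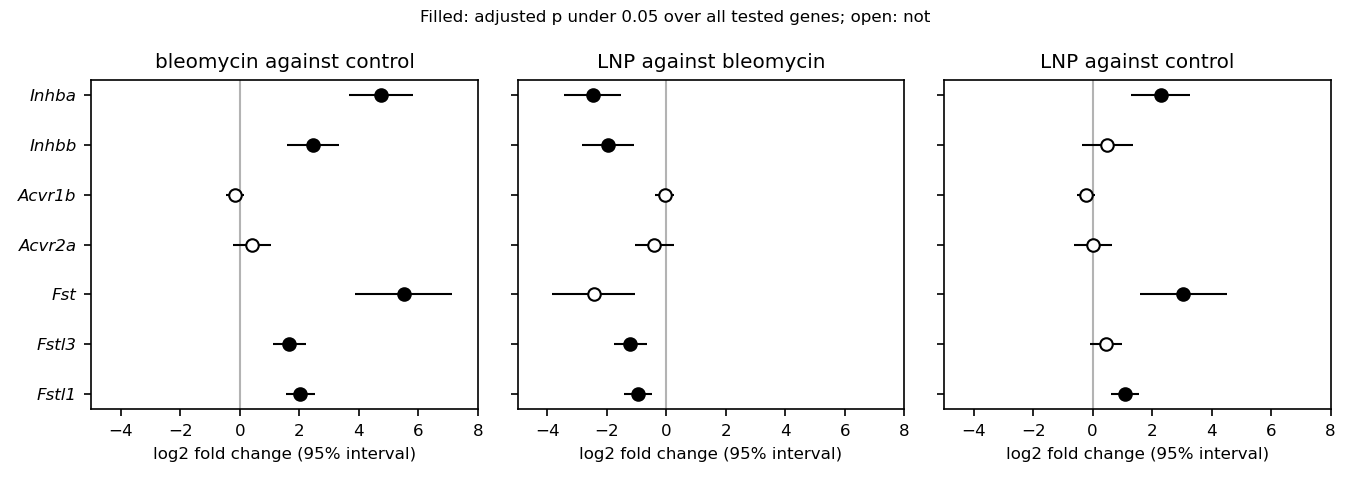
Log2 fold change of each gene with its 95% interval in the 3 comparisons, from edgeR's fit of all 9 libraries. Filled circles passed an adjusted p of 0.05 over all tested genes. Fst is open against bleomycin at an adjusted p of 0.0504, and Acvr1b and Acvr2a are open in every panel.

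Levels of different genes were compared on the per-length scale (FPKM, fragments scaled by gene length and library size). Fstl1 was the most abundant member in every group, at 63.5 ± 21.6 FPKM in LNP libraries, 113 ± 4.26 FPKM in bleomycin libraries and 29.1 ± 1.94 FPKM in control libraries (SD, n = 3 each). Inhba was the least abundant in control lung at 0.231 ± 0.0936 FPKM, and still low in LNP lung at 1.16 ± 0.219 FPKM, against 5.82 ± 3.04 FPKM in bleomycin lung. Fst had 8.05 ± 8.13 FPKM in LNP libraries, 40.3 ± 15.2 FPKM in bleomycin libraries and 0.934 ± 0.0751 FPKM in control libraries. In control lung Fst thus lay far below Fstl3, which had 15.6 ± 1.31 FPKM there, while in bleomycin lung the 2 antagonists had overlapping levels (25.2 to 55.6 FPKM for Fst and 46.3 to 47.7 FPKM for Fstl3). Inhbb exceeded Inhba in each library.

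The balance between the subunit genes differed between the groups, given here as values without a test. The ratio of Inhbb to Inhba FPKM was 8.45, 9.05 and 4.55 in LNP libraries, 5.03, 4.86 and 4.93 in bleomycin libraries and 25.4, 44.0 and 15.1 in control libraries. Control lung lay above both other groups without overlap. The control ratios rest on low Inhba levels of 0.233, 0.137 and 0.324 FPKM, from 98, 66 and 153 counts. Inhbb stood at 5.93, 6.00 and 4.89 FPKM in the same libraries. The 3 bleomycin libraries gave nearly one ratio although their Inhba levels were 8.89, 5.77 and 2.80 FPKM. The summed FPKM of Fst and Fstl3 over the summed FPKM of Inhba and Inhbb was 2.05, 1.98 and 6.47 in LNP libraries, 1.93, 2.55 and 4.37 in bleomycin libraries and 2.63, 2.93 and 2.93 in control libraries. With all libraries these ratios overlapped between the groups. Without LNP replicate 3, both LNP libraries lay below every control library and still overlapped bleomycin lung. For Fst over Inhba the values were 2.92, 3.43 and 12.7 in LNP libraries, 6.25, 6.95 and 8.99 in bleomycin libraries and 4.07, 7.32 and 2.63 in control libraries, with the highest in LNP replicate 3. LNP replicates 1 and 2 lay below every bleomycin library and within the control range. Ratios of RNA say nothing about the amount of free activin protein, which was not measured.

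**Figure D3:**
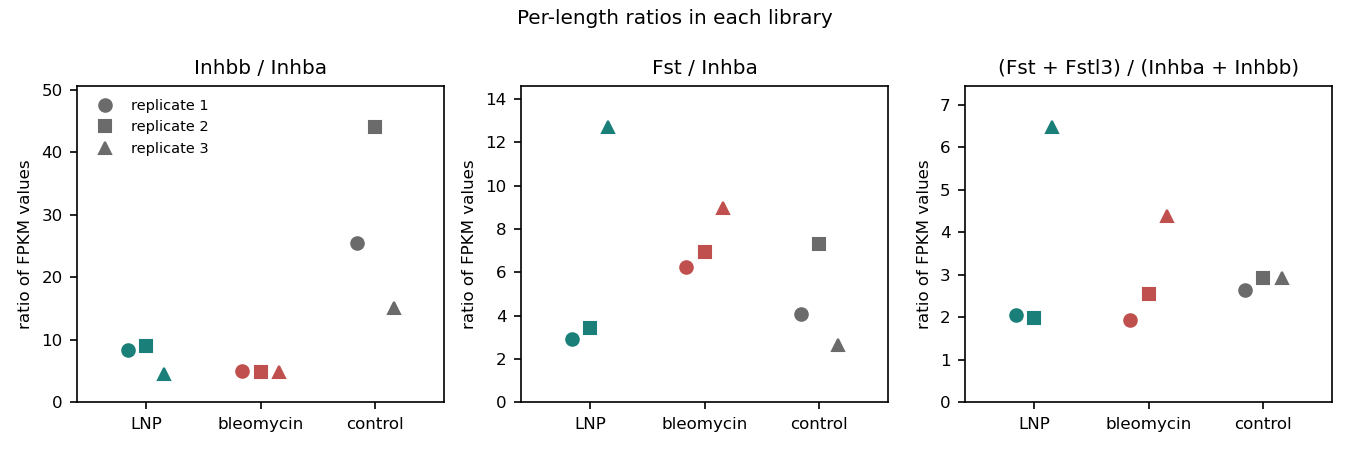
Ratios of FPKM values in each library for Inhbb over Inhba, Fst over Inhba, and Fst plus Fstl3 over Inhba plus Inhbb, with LNP, bleomycin and control from left to right. Control libraries reach 15.1 to 44.0 for Inhbb over Inhba, and LNP replicate 3 is the highest point in the other 2 panels.

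Within the bleomycin group the members split in how much they varied. Inhba differed 3.48-fold, Inhbb 3.55-fold and Fst 2.42-fold between the highest and the lowest bleomycin library, with replicate 1 highest and replicate 3 lowest for each. Fstl3 differed only 1.10-fold and Fstl1 1.03-fold across the same libraries. Summed fibroblast markers were 8349, 8520 and 8707 CPM and summed macrophage markers 6692, 6022 and 5903 CPM in bleomycin replicates 1, 2 and 3. In the same order, summed lung markers were 19587, 18538 and 17725 CPM and summed cardiac muscle markers 112, 276 and 395 CPM. The part of tissue makeup in the spread of the members was not tested. In LNP lung the spread was 6.50-fold for Fst, 2.11-fold for Fstl3 and 1.79-fold for Fstl1, and 1.49-fold for Inhba.

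Markers for cells of the lung differed between the groups too, and each list moved unevenly. In bleomycin against control, 15.2% of all tested genes were called higher and 18.5% lower. For LNP against bleomycin these shares were 4.28% and 1.87%. Fibroblast markers, 8 genes, summed to 4705, 5199 and 7156 CPM in LNP libraries, 8349 to 8707 CPM in bleomycin libraries and 2519 to 2953 CPM in control libraries. Col1a1, Col1a2 and Col3a1 made up most of this sum, at 2610, 2146 and 2768 CPM in bleomycin replicate 1. The collagen genes Col1a1, Col1a2 and Col3a1 were called higher in bleomycin than in control lung, the fibroblast transcription factor Tcf21 was called lower (log2 fold change -2.38), and Pdgfra, Pdgfrb, Dcn and Lum did not pass (edgeR). Against bleomycin, LNP lung had 1 of the 8 called lower, Col3a1. Macrophage markers, 9 genes, summed to 2028, 3182 and 4264 CPM in LNP libraries, 5903 to 6692 CPM in bleomycin libraries and 279 to 302 CPM in control libraries. In bleomycin against control 7 of the 9 were called higher. In LNP against bleomycin 1 of the 9, Spp1, was called lower, with a list median of -0.19. Spp1, which encodes osteopontin, made up much of the sum, at 1192, 2113 and 2529 CPM in LNP libraries and 4537 to 5292 CPM in bleomycin libraries. Trem2 (-0.08), Cd68 (0.12), C1qa (-0.19), C1qb (-0.21), Adgre1 (-0.22), Marco, Mertk and Siglecf did not pass. Marco had 13.7, 3.45 and 27.9 CPM in LNP libraries and 61.3, 46.6 and 32.9 CPM in bleomycin libraries, without overlap. For Trem2, C1qa, C1qb and Mertk, LNP replicates 1 and 2 lay below every bleomycin library and LNP replicate 3 above. Cd68, Adgre1 and Siglecf did not show this. C1qa had 261, 331 and 540 CPM in LNP libraries and 436, 432 and 421 CPM in bleomycin libraries. Lung markers, mostly epithelial and endothelial, summed to 34740, 26973 and 14736 CPM in LNP libraries, 17725 to 19587 CPM in bleomycin libraries and 47212 to 59824 CPM in control libraries. Scgb1a1 and Sftpc made up most of this sum, at 18368 and 15373 CPM in control replicate 1. Of the 12 lung markers, 8 were called lower in bleomycin than in control lung, and 1, the ciliated-cell gene Foxj1, was called higher in LNP than in bleomycin lung. In whole tissue, more cells of a type and more RNA per cell cannot be told apart, and the part of cell makeup in the member values was not tested. Mesothelium markers, 4 genes, summed to 374, 263 and 538 CPM in LNP libraries, 621 to 735 CPM in bleomycin libraries and 231 to 397 CPM in control libraries. Msln was called higher in bleomycin than in control lung, and Upk3b and Lrrn4 were called lower. Smooth muscle markers, 6 genes, summed to 988, 888 and 2441 CPM in LNP libraries, 1771 to 1924 CPM in bleomycin libraries and 1385 to 1808 CPM in control libraries. LNP replicates 1 and 2 lay below every other library, and in replicate 3 Des alone had 1292 CPM. Cardiac muscle markers, 8 genes, summed to 214 to 363 CPM in LNP libraries, 112 to 395 CPM in bleomycin libraries and 877 to 1259 CPM in control libraries. No gene of these 6 lists was at 0 in a library, while 0 to 3 skeletal muscle and 0 to 5 squamous markers were.

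At the transcript level each member was led by a single coding transcript. Inhba-201 held 99.7% of Inhba counts and Fstl1-201 held 99.9% of Fstl1 counts, summed over the 9 libraries. Fst-202, the transcript for the shorter precursor of 317 residues (GENCODE vM21), held 92.0% of Fst counts, and Fst-201, which codes for 344 residues and adds the acidic tail of follistatin, held 5.41%. The share of Fst-202 was 90.4%, 91.4% and 90.4% in LNP libraries, 92.5%, 92.1% and 92.9% in bleomycin libraries and 89.2%, 77.1% and 90.8% in control libraries. Control replicate 2 was the exception, with a 95% Wilson interval from 72.4% to 81.2% on 349 Fst counts. Fstl3-202, a non-coding transcript, held 3.05%, 4.20% and 0.0841% of Fstl3 counts in LNP libraries, 0.527%, 1.81% and 3.81% in bleomycin libraries and 17.1%, 15.3% and 14.7% in control libraries. Its share was higher in every control library than in any other library, and the CPM of this transcript ran from 0.0697 to 2.06 in LNP, 0.737 to 4.84 in bleomycin and 5.48 to 7.25 in control libraries. The intervals cover counting error only, and no source read for this work says how reads were divided among transcripts.

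**Figure D4:**
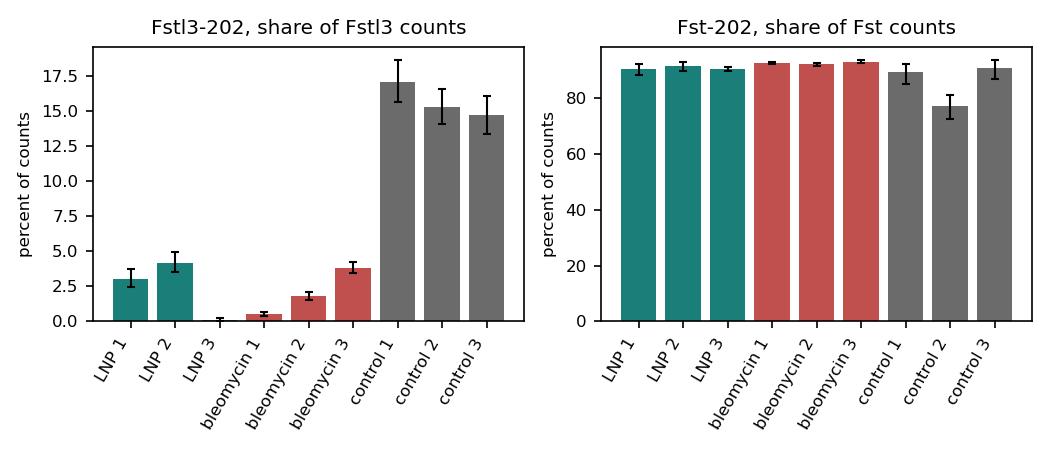
Percent of Fstl3 counts on the non-coding transcript Fstl3-202 and percent of Fst counts on Fst-202 in each library, with 95% Wilson intervals as error bars. Control libraries hold 14.7% to 17.1% on Fstl3-202, against at most 4.20% elsewhere, while Fst-202 stays at 89.2% or above except in control replicate 2.

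Other genes of the activin pathway were taken from a list of 37 written from knowledge of the pathway. Earlier results of these data were known when it was written, so its counts are a description. Of these, 34 were in the table and 28 were tested. In bleomycin against control 7 were called higher and 3 lower, beside 15.2% of all tested genes called higher and 18.5% called lower. The median log2 fold change was 0.15 over the 28 tested, against -0.05 over all tested genes. All 3 proprotein convertases, which cleave activin precursors, rose in bleomycin lung: Furin by 1.30, Pcsk5 by 1.30 and Pcsk6 by 0.67 on the log2 scale (edgeR adjusted p = 0.00233, 0.00302 and 0.0195). Among feedback genes, Pmepa1, a membrane protein that restrains SMAD activation, rose by 1.56 and its relative Ldlrad4 by 0.81 (edgeR adjusted p = 0.000194 and 0.0057). Of 8 SMADs and cofactors tested, the co-repressor Tgif1 rose by 1.23 and the inhibitory Smad7 fell by 0.61 (edgeR adjusted p = 0.00697 and 0.00476), and the other 6 did not pass.

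None of the other receptors rose in bleomycin lung. Bambi, a pseudoreceptor without a kinase domain, had 12.8, 11.5 and 11.6 CPM in bleomycin libraries against 22.5, 34.9 and 26.0 CPM in control libraries and fell by 1.21 on the log2 scale (edgeR adjusted p = 0.00223). Igsf1 fell by 1.44 (edgeR adjusted p = 0.0116) at levels of at most 2.65 CPM. Acvr1 (log2 fold change 0.14), Acvr2b (0.05), Tgfbr3, the inhibin co-receptor betaglycan (-0.43), and Cripto, a co-receptor for Nodal (-0.17), did not pass, and Acvr1c was below the count filter in this fit. Among ligand genes neither Inha, whose alpha subunit turns activin into inhibin (0.24), nor Gdf11, a ligand that shares the type II receptors (0.52), passed. The 4 antagonists tested outside the follistatin members, Fstl4, Lefty1, Wfikkn1 and Wfikkn2, did not pass (edgeR adjusted p = 0.235, 0.0761, 0.154 and 0.169). Without LNP replicate 3, a library outside this comparison that enters the shared fit, 8 pathway genes were called higher and 6 lower of 29 tested, beside 20.5% of all tested genes called higher and 22.1% called lower. Wfikkn1 was then called higher (log2 fold change 1.81, edgeR adjusted p = 0.00495), and Lefty1 (edgeR adjusted p = 0.0385), Tgfbr3 (0.00595) and Acvr1c (0.00637) were called lower. Acvr1c, a type I receptor for Nodal and activin B, had 0 counts in each bleomycin library and 29, 4 and 48 counts in control libraries. Dip2a, a cell-surface protein reported to bind Fstl1, had a log2 fold change of 0.14.

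In LNP against bleomycin 3 of the 28 were called lower and 0 higher, beside 1.87% of all tested genes called lower and 4.28% called higher. The median over the 28 was -0.25, against 0.04 over all tested genes. Pmepa1 had 157, 152 and 213 CPM in LNP libraries against 288, 277 and 260 CPM in bleomycin libraries, without overlap. Pmepa1 fell by 0.66 and Smad4, the common SMAD partner, fell by 0.50 (edgeR adjusted p = 0.0328 and 0.0417). Of the ligands and receptors, Inha had a log2 fold change of 0.23, Gdf11 0.53, Acvr1 -0.17, Acvr2b -0.24, Tgfbr3 -0.30, Bambi 0.40, Igsf1 0.60 and Cripto -0.10, and none passed. Without LNP replicate 3 the count was 9 lower of 29 tested, beside 10.7% of all tested genes called lower. The genes added were Inha, Tgfbr3, Wfikkn1, Furin, Pcsk5 and Ldlrad4. Several of these were high in that library. Inha stood at 4.76 CPM in LNP replicate 3 against 0.4997 and 0.606 CPM in LNP replicates 1 and 2, and Tgfbr3 at 130 CPM against 56.3 and 55.9 CPM. Mstn, which encodes the muscle ligand myostatin, had 1.90 CPM in LNP replicate 3 and 0 counts in replicates 1 and 2. Leaving out bleomycin replicate 1 or 2, or LNP replicate 1 or 2, gave 0 called pathway genes, and leaving out bleomycin replicate 3, control replicate 1 or control replicate 3 gave 1.

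In LNP against control 2 of the 28 were called higher and 2 lower, beside 4.95% of all tested genes called higher and 3.08% called lower. Pmepa1 (0.90 ± 0.15, edgeR adjusted p = 0.00656) was higher, and Smad7 (-0.86 ± 0.12, edgeR adjusted p = 0.00366) and Bambi (-0.82 ± 0.21, edgeR adjusted p = 0.039) were lower. Smad7 had 60.4, 56.1 and 57.2 CPM in LNP libraries against 94.2, 114 and 108 CPM in control libraries. The median over the 28 was -0.10, against -0.003 over all tested genes. Inha had a log2 fold change of 0.47, Gdf11 1.05, Acvr1 -0.04, Acvr2b -0.19, Tgfbr3 -0.74, Igsf1 -0.84 and Cripto -0.27, and none of these passed. Without LNP replicate 3, Gdf11 joined the 2 higher genes, and Inha, Tgfbr3 and Smad7 were the 3 called lower. Of all tested genes, 6.41% were then called higher and 4.51% lower. With control replicate 1, 2 or 3 left out, 2 pathway genes were called.

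**Figure D5:**
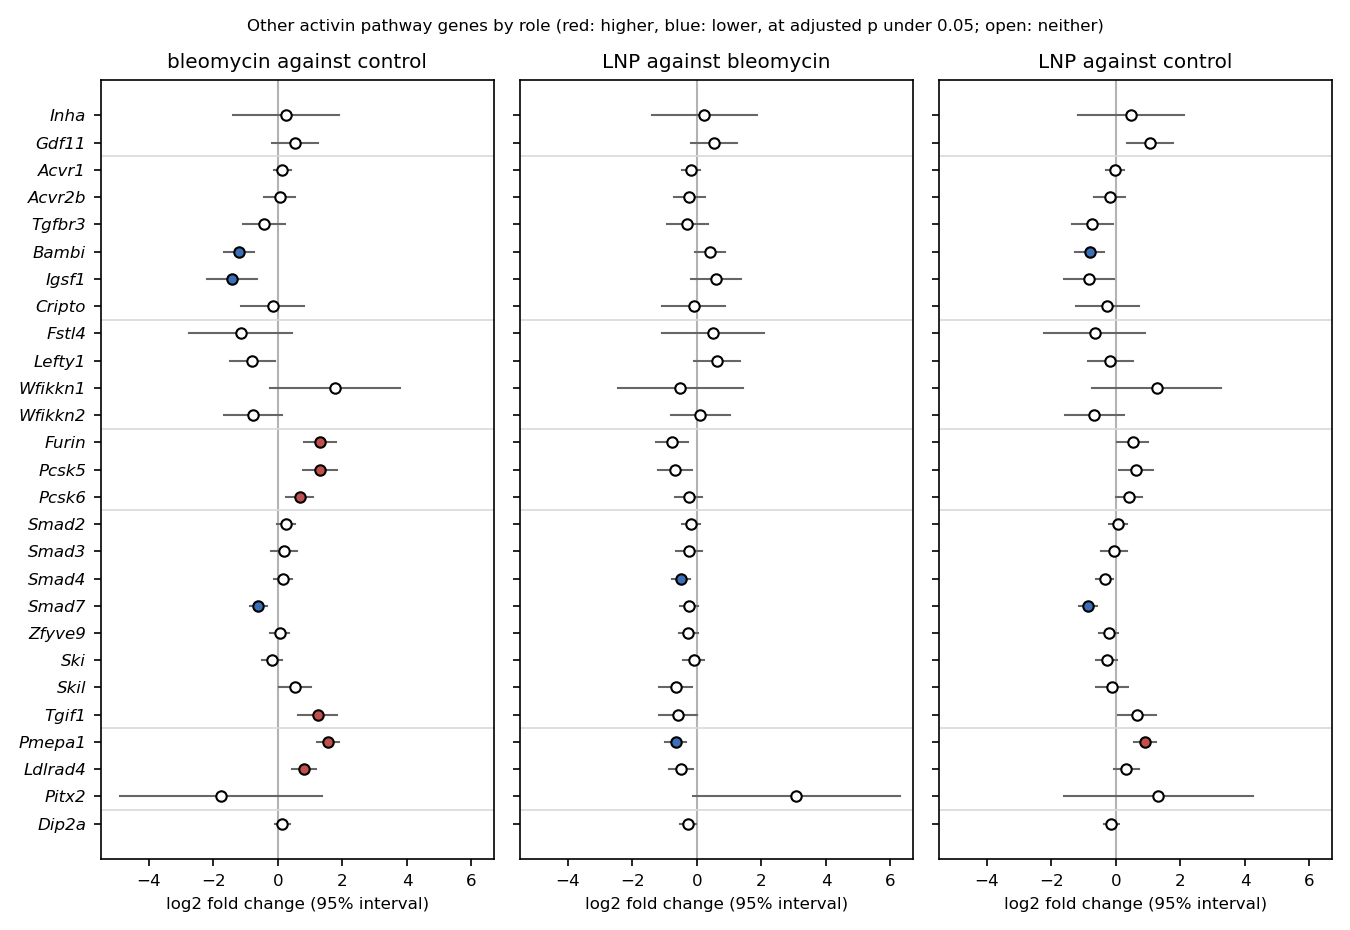
Log2 fold change with its 95% interval for other activin pathway genes, grouped by role from ligands at the top to the Fstl1-binding Dip2a at the bottom. Red marks genes called higher and blue genes called lower at an adjusted p under 0.05. The 3 convertases, Tgif1, Pmepa1 and Ldlrad4 are red for bleomycin against control, and Pmepa1 and Smad4 are blue for LNP against bleomycin.

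Likeness of pattern was measured as Pearson's r of log2 CPM over the 9 libraries among 11780 named genes with a mean of at least 5 CPM. The points share the same 3 groups and scaling, so r is a description. For Inhba the highest values were Msx1 at 0.995, Pi15 at 0.992, Thbs1 at 0.990, Adamts1 at 0.989 and Hsd17b7 at 0.988. Thbs1, which encodes the matricellular protein thrombospondin, had 347, 491 and 682 CPM in LNP libraries, 3238, 2063 and 1078 CPM in bleomycin libraries and 131, 114 and 119 CPM in control libraries. Like Inhba it was highest in replicate 1 and lowest in replicate 3 of the bleomycin group. Fst was most alike Slc20a1 at 0.998 and Myc at 0.997. Myc, a growth-promoting transcription factor, had 16.8, 22.2 and 61.8 CPM in LNP libraries, 118, 88.4 and 63.7 CPM in bleomycin libraries and 7.90, 8.73 and 6.59 CPM in control libraries, so that its LNP replicate 3 also stood near bleomycin lung. Fstl1 was most alike Pgf at 0.997 and Col7a1 at 0.996, and Fstl3 was most alike Sema7a at 0.996 and Dnajc5 at 0.995. Inhbb was most alike Hsd17b12 at 0.988 and Ppp2ca at 0.987, and Acvr2a was most alike Rbm7 at 0.990 and Zfp131 at 0.989, which share its low value in control replicate 2. Acvr1b had the loosest matches, Hoxa4 at 0.929 and Pdhb at 0.896.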

How the data were processed

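Per the labels' protocols, poly(A) RNA of whole lung was used for 9 paired-end libraries with a dUTP-labelled second strand. Tools named in the submitters' processing notes are fastp, StringTie and edgeR, without versions. The aligner, the build and the use of strand in counting are not given in these sources, which leaves overlapping genes uncertain. Per the file headers, the authors deposited raw counts for genes and transcripts and, for genes, FPKM values. Groups came from the labels. Counts of all 9 libraries were fitted with edgeR 4.0.16 (R 4.3.3), TMM scaling and filterByExpr, by quasi-likelihood F tests adjusted by Benjamini-Hochberg over 20794 genes and called at 0.05. CPM use the TMM-scaled sizes. Values after ± are SD for levels and SE for log2 fold changes. The members, pathway and marker lists were chosen with earlier results of these data known. Named were all members, every pathway ligand and receptor, called genes of other roles (at most 4 per role), and the genes most alike. Alternatives were DESeq2 1.42.0, other scalings, no filter, fits of 2 groups, a replicate block, limma 3.58.1 on log2(FPKM + 1) and log2(FPKM + 0.1), and leaving out each library. Libraries within a group differed beyond sampling noise, with a chi-square over its degrees of freedom of 32.7 or more. The fitting script was tested on simulated data. Same-numbered libraries did not deviate together (r from -0.018 to 0.04), so replicate numbers were not taken as pairs. In the pathway list, 1 gene is counted in the list totals and is not reported here.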

Additional observations from a re-analysis of the deposited data

How the results depend on the processing

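Over 378 recomputed fold changes of the members, 326 kept direction and side of the threshold, 41 kept direction but no longer passed, 4 newly passed and 7 reversed, none of the reversed ones being called. The reversals were Acvr1b in LNP against bleomycin with library-size scaling (0.0681), limma on log2(FPKM + 1) with and without a filter (0.0629 each), limma on log2(FPKM + 0.1) (0.0672) and without bleomycin replicate 1 (0.0189, in a range from -0.1624 to 0.0189 over the libraries left out), and Acvr2a in LNP against control without control replicate 2 (-0.3071) and without LNP replicate 3 (-0.0672, in a range from -0.3071 to 0.2027). The cause was not tested. In LNP against bleomycin, 1280 genes were called, against 3011 with DESeq2, 794 without a filter on low counts, 318 in a fit of the 2 groups alone, 432 with a replicate block and 539 with unfiltered limma; 4 members were called, against 0 in the fit of 2 groups, 2 with the replicate block and 0 with unfiltered limma, while DESeq2 and both filtered limma fits called 5 by adding Fst; and 3 pathway genes, against 7 with DESeq2 and 0 in each of the other 3. In LNP against control, 1671 genes were called, against 2937 with DESeq2 and 1010 in the fit of 2 groups; 3 members, against 1 with limma on log2(FPKM + 1) with or without a filter; and 4 pathway genes, against 2 with the replicate block and 2 with unfiltered limma. Leaving out 1 library gave 4375 to 9102 called genes in bleomycin against control, where 7002 were called; 102 to 5284 genes, 0 to 5 members and 0 to 9 pathway genes in LNP against bleomycin; and 717 to 2332 genes, 0 to 3 members and 2 to 6 pathway genes in LNP against control. Under the replicate block, Fstl3 and Fstl1 in LNP against bleomycin (edgeR adjusted p = 0.0535 each) and Fst in LNP against control (0.0649) lost their calls, with log2 fold changes of -1.25, -0.99 and 2.81 against -1.20, -0.95 and 3.05 without it; the libraries share only a number. With 3 libraries a group, the calls rest on few samples, and Inhba in control lung rests on 66 to 153 counts a library.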
